A study of Mus musculus with 39 samples.

Results

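The genes described here are the ligands and receptors of the classical axon guidance families. The rule used family names alone: every protein-coding semaphorin, plexin, neuropilin, Slit, Robo, netrin, Unc5 receptor, ephrin and Eph receptor, together with Dcc and Neo1, while the netrin-G genes were not taken. The list held 69 genes, of which 50 (23 ligands and 27 receptors) reached a mean of 10 counts over the 36 libraries used and were tested among 11472 genes in all. These were 9 of 14 Eph receptors, 7 of 8 ephrins, 5 of 6 netrin receptors, both neuropilins, 8 of 9 plexins, 3 of 4 Robos, 14 of 20 semaphorins and 2 of 3 Slits. None of the 3 netrins passed. The genes below the minimum were Efna3, Epha1, Epha2, Epha6, Epha8, Epha10, Ntn1, Ntn4, Ntn5, Plxnb3, Robo4, Sema3b, Sema3d, Sema3e, Sema3g, Sema4c, Sema6b, Slit3 and Unc5b. The genes just inside it were Efnb1 and Slit1, with mean counts of 12.2 and 13.6, and the nearest outside was Ntn4, with 8.36. A gene that is high in a single group can pass a mean over all libraries through that group alone, so the counts below cover the genes that passed and are set against every gene tested.

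Axon guidance molecules steer growing axons and migrating neurons by attraction and repulsion. Semaphorins act through plexins, and the secreted class 3 semaphorins bind neuropilins as co-receptors. Slits act on Robo receptors, netrins on Dcc, neogenin and the Unc5 receptors, and ephrins on Eph receptors, with signals passing into both contacting cells. In the embryonic neocortex these systems direct callosal and corticofugal axons and the migration of newborn projection neurons.

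Small pools of fluorescent cells were sorted from mouse neocortex on embryonic days 13 (E13) and 16 (E16), and their RNA was sequenced. All embryos carried the chromosome 7 cassettes MADM-7-GT and MADM-7-TG (Mosaic Analysis with Double Markers) and Emx1-Cre, which drives recombination in progenitors of the dorsal forebrain and their descendants only. The labels give the strain as CD1, and the methods a mixed C57BL/6J and CD1 background. Each embryo gave red, green and yellow cells: red and green cells hold both copies of chromosome 7 from the same parent, in opposite directions, and yellow cells, the controls, hold 1 copy from each. The mating described in the study puts the maternal copies in green cells and the paternal copies in red cells, but its sample list swaps them from replicate 4 on at both ages, and the labels name no parent. Each single colour therefore mixes both directions, and no test by parent was made. Single embryos were the replicates. After 3 libraries with few uniquely aligned reads were left out (replicate 3 of the yellow E13 cells and replicate 5 of both single colours), each colour had 5 libraries from 6 E13 embryos and 7 libraries from 7 E16 embryos. A pool mixes progenitors and neurons, and fewer cells of a type and less RNA per cell cannot be told apart in it.

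The 36 libraries held 472924 to 5205788 gene counts (median 3452734) and 7858 to 13768 detected genes. A level of 3 counts, taken as the smallest a library can show, corresponded to 0.576 to 6.34 CPM, counts scaled to a common library size. The markers Pax6 of radial glia, Eomes of intermediate progenitors and Neurod6 of projection neurons had counts in every library. Of the other radial glia markers, Hes5 was at 0 in 26 of 36 libraries, Nes in 6, Sox2 and Slc1a3 in 3 each and Hes1 in 1. The larger signal, Xist or 4 Y-linked genes, was the same in every library of each of the 12 embryos with at least 2 libraries, but 3 libraries (E13 yellow replicate 2, E16 yellow replicate 5 and E16 green replicate 7) held at least 50 counts of both. Y-linked counts were the larger in E13 replicates 1 to 3 and in E16 replicates 1, 2, 3, 5 and 7. Xist was the larger in the other embryos. At E13 this split falls on the same replicates as the swap of parents between red and green. These factors cannot be told apart there. The part of sex in the differences between the ages was not tested. E13 yellow replicate 2 and E16 yellow replicate 7 had 40.9% and 44.1% of reads outside genes, and the other libraries at most 34.7%. E16 red replicate 5 had 18.5% of reads in overlapping genes, where the other libraries had at most 10.8%, and its oligodendrocyte markers summed to 441 CPM, where the other E16 libraries had at most 13.2 CPM. E13 green replicate 4 stood apart in several genes described below. E13 embryo 3 was represented by red and green cells only and E13 embryo 5 by yellow cells only.

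Receptors were the more abundant side. On a scale per length (CPM per kilobase of exon, mean over the 36 libraries), the highest levels were those of Epha4 (26.3), a receptor for ephrins of both classes, Plxna3 (21.5), Plxnb2 (21.1), Epha3 (19.3) and Plxna4 (18.3). Of the 13 highest genes, 12 were receptors, and the ligand among them was Efnb2 (16.5), a transmembrane ephrin. Nrp1 (16.2), Neo1 (15.1), Robo2 (14.6), Plxna2 (14.0), Epha5 (13.2), Unc5d (10.4) and Plxnb1 (10.2) followed. At the other end stood Sema4d (0.651), Plxnd1 (0.730), a receptor for Sema3e, and Slit1 (0.749). Counts were present in every library for 10 of the 50 genes, whereas 18 genes were at 0 in at least 10 libraries. Sema7a, Ephb4 and Unc5a were each at 0 in 21 of 36 libraries and Robo3 in 25.

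**Figure D1:**
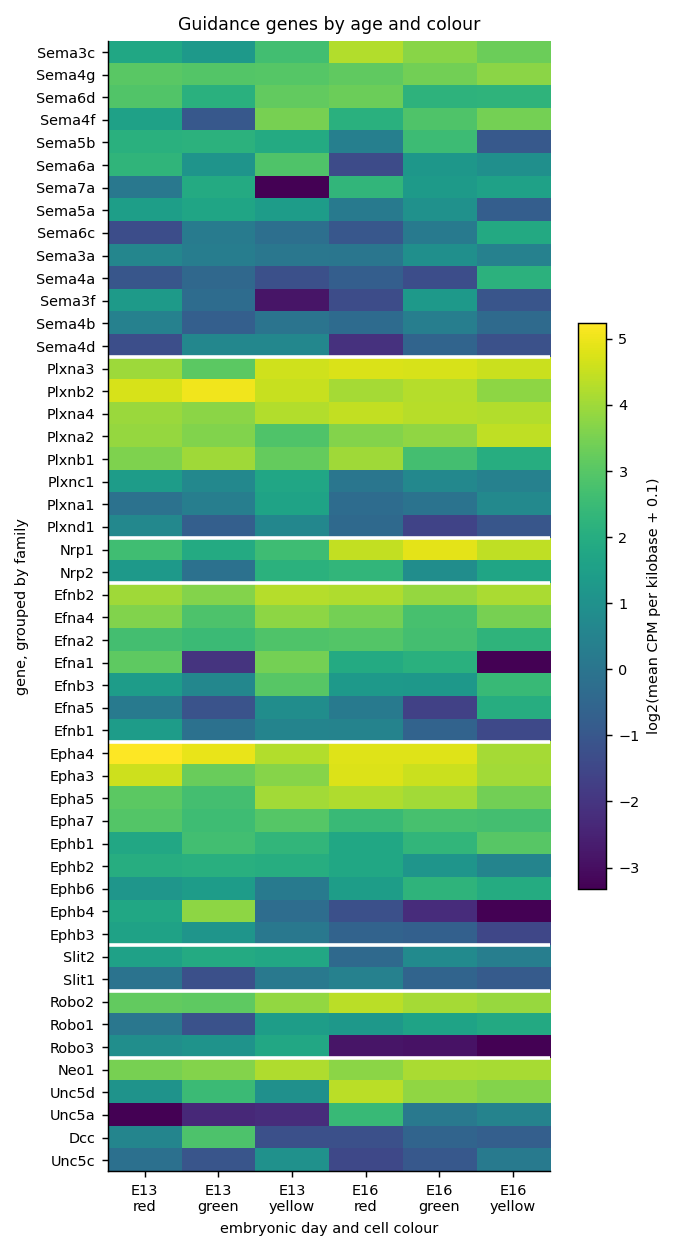
Heat map of the mean level of each of the 50 genes, as log2 of CPM per kilobase of exon plus 0.1 (colour scale), with genes in rows grouped by family and the 6 groups of age and cell colour in columns (n = 5 libraries per colour at E13, 7 at E16). Within the families the receptors Epha4, Plxna3 and Plxnb2 stand at the upper end of the scale and Sema4d and Plxnd1 at the lower end.

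Family sums on the same scale are given as descriptions, without a test. The 2 neuropilins summed to 8.38 ± 2.50 in red, 4.44 ± 3.46 in green and 10.1 ± 3.39 in yellow E13 libraries (SD, n = 5 each). In E16 libraries they summed to 26.5 ± 10.3, 31.4 ± 10.4 and 24.3 ± 4.06 (SD, n = 7 each), so the E16 means were higher in each colour. The 2 Slits had means of 3.76, 3.99 and 4.40 at E13 and 1.93, 2.17 and 1.63 at E16 in the same order. The 8 plexins had means between 83.8 and 96.2 in all 6 groups. Ligands of all families summed to 65.2 ± 19.4 in green and 118 ± 11.2 in yellow E13 libraries (SD, n = 5 each) and to 91.9 ± 16.7 and 99.6 ± 39.5 at E16 (SD, n = 7 each).

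The age comparison sets E16, when upper-layer neurons form, against E13, when deep-layer neurons form. The counts of an embryo's red, green and yellow libraries were summed first, so that each embryo counts once. Of the 50 genes, 5 (10%) passed an adjusted p of 0.05 in edgeR's quasi-likelihood test with Benjamini-Hochberg adjustment, against 4.54% of all genes tested. Nrp1, Sema3c and Unc5d rose (3 genes, background 2.28%), and Robo3 and Slit2 fell (2 genes, background 2.26%). The E13 and E16 embryos did not overlap for 4 of the 50 genes (8%), namely these without Sema3c, against 3.46% of all genes. At an unadjusted p under 0.05 stood 14 of the 50 genes (28%) and 18.6% of all genes. The median log2 difference, E16 minus E13, was −0.14 over the 50 genes and 0.05 over all genes. The sign of the former turned without E13 embryo 5 (0.08), without the 3 libraries that held both Xist and Y-linked counts (0.13) and with voom on the unsummed libraries (0.11), and over embryos with all 3 libraries it was −0.01.

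Nrp1 (ENSMUSG00000025810.9, chr8:128358604-128503363 (plus strand) in GRCm38) is the co-receptor through which class 3 semaphorins and vascular endothelial growth factor act. The 6 E13 embryos ranged from 31.8 to 119 CPM (median 53.0) and the 7 E16 embryos from 179 to 389 CPM (median 229). Every E16 embryo was above every E13 embryo. E13 replicates 1 to 3 were at 61.8, 44.2 and 84.1 CPM and E13 replicates 4 to 6 at 33.5, 119 and 31.8 CPM. The mean was 62.5 ± 34.1 CPM at E13 (SD, n = 6) and 251 ± 70.8 CPM at E16 (SD, n = 7), and the fitted log2 difference was 2.01 (SE 0.33, adjusted p = 0.00177), a 4.03-fold rise. In red cells the E13 libraries read 70.5, 67.8, 103, 23.9 and 30.8 CPM and the E16 libraries 88.3 to 333 (median 234). In green cells they read 74.1, 48.5, 17.7, 0.418 and 37.4 CPM and 182 to 471 (median 294). The yellow libraries read 48.8, 22.1, 63.4, 121 and 30.4 CPM and 138 to 256 (median 225). The ages were apart in green and yellow cells and overlapped in red cells through E16 replicate 6, a library the study did not use. With the 32 libraries the study used, Nrp1 passed in red cells, among 192 of all genes. Nrp2, the other neuropilin, was at 28.4 ± 15.1 CPM at E13 (SD, n = 6) and 37.0 ± 32.6 CPM at E16 (SD, n = 7) and did not pass (log2 0.38, SE 0.55).

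Unc5d (ENSMUSG00000063626.6, chr8:28646717-29219636 (minus strand)), a repulsive netrin receptor that also binds FLRT proteins, ranged from 2.71 to 63.3 CPM (median 26.8) in the E13 embryos and from 98.2 to 220.1 CPM (median 146) in the E16 embryos. The ages did not overlap. E13 replicates 1 to 3 were at 30.1, 37.0 and 63.3 CPM and E13 replicates 4 to 6 at 15.7, 23.6 and 2.71 CPM. The mean went from 28.7 ± 20.7 (SD, n = 6) to 140.1 ± 41.4 CPM (SD, n = 7), with a fitted log2 difference of 2.29 (SE 0.49, adjusted p = 0.0136), a 4.88-fold rise. The E13 libraries read 28.4, 0, 27.3, 24.0 and 6.88 CPM in yellow, 0, 27.0, 57.8, 6.61 and 1.28 in red and 89.2, 73.8, 81.8, 10.9 and 0 in green cells. At E16 the range was 48.3 to 198 (median 102) CPM in yellow, 92.8 to 309 (median 138) in red and 53.1 to 233 (median 114) in green cells. No E16 library was at 0, and 3 of the 5 green E13 libraries lay inside the green E16 range. With red and green libraries only, the log2 difference was 2.19 and did not pass (adjusted p = 0.106).

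The other netrin receptors did not pass. Dcc, which mediates attraction to netrin, was at 0.586 to 110.1 CPM in the E13 embryos and 1.62 to 12.8 CPM in the E16 embryos (log2 −2.60, SE 0.91, adjusted p = 0.119). Its E13 values were highest in green replicate 4, at 430.0 CPM, and red replicate 3, at 61.3 CPM, while the other E13 libraries lay between 0 and 23.9 CPM. Unc5a had 15 counts over all E13 embryos and 845 over the E16 embryos (log2 5.46, SE 1.61, adjusted p = 0.0622), and 623 of the latter came from red cells. Neo1, the neogenin receptor of netrins and repulsive guidance molecules, was at 125 ± 25.7 and 147 ± 38.2 CPM (SD, n = 6 and 7; log2 0.24, SE 0.23). Unc5c, another repulsive netrin receptor, stood at 15.3 ± 16.8 and 8.73 ± 5.72 CPM (SD, n = 6 and 7; log2 −0.81, SE 0.96). Ntn1, the best-known ligand of these receptors, was below the count minimum.

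Sema3c (ENSMUSG00000028780.13, chr5:17574281-17730268 (plus strand)) is a secreted class 3 semaphorin that signals through neuropilins. The E13 embryos ranged from 16.9 to 35.9 CPM (median 28.8) and the E16 embryos from 28.6 to 146 CPM (median 98.6). All E16 embryos but replicate 7 were above the E13 embryos. E13 replicates 1 to 3 were at 27.4, 31.5 and 35.9 CPM and E13 replicates 4 to 6 at 16.9, 21.6 and 30.2 CPM. The mean went from 27.2 ± 6.95 (SD, n = 6) to 94.8 ± 37.8 CPM (SD, n = 7), and the fitted log2 difference was 1.80 (SE 0.35, adjusted p = 0.00760), a 3.48-fold rise. In yellow cells the E13 libraries read 57.3, 43.6, 23.9, 21.9 and 75.3 CPM and the E16 libraries 5.18 to 176 (median 61.2), with wide overlap. In red cells they read 3.23, 49.7, 36.6, 21.6 and 7.92 CPM and 75.4 to 329 (median 111), with none; the highest of these was replicate 5. Without that embryo the summed log2 difference was 1.66 and passed (adjusted p = 0.0184). In green cells they read 28.6, 12.9, 33.2, 0 and 8.79 CPM and 23.2 to 171 (median 92.4), with overlap at the lower end of E16.

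Among the other 13 semaphorins and the 8 plexins none passed. Sema3a, a secreted repellent, was at 17.3 ± 7.86 CPM at E13 and 16.5 ± 8.62 CPM at E16 (SD, n = 6 and 7; log2 −0.07, SE 0.60). Sema6a, a transmembrane semaphorin, was at 42.8 ± 21.4 and 15.3 ± 10.9 CPM (SD, n = 6 and 7; log2 −1.48, SE 0.55, adjusted p = 0.140). Sema7a, a membrane-anchored semaphorin, was at 4.28 ± 8.16 and 11.4 ± 15.1 CPM (SD, n = 6 and 7; log2 1.40, SE 1.63). Its receptor Plxnc1 had a log2 difference of −1.30 (SE 0.64). The A-type plexins, the signalling partners of neuropilins, had log2 differences of −0.32 for Plxna1 (SE 0.81), 0.57 for Plxna2 (SE 0.43), 0.66 for Plxna3 (SE 0.29) and 0.26 for Plxna4 (SE 0.28). Plxnd1 had one of −1.53 (SE 1.39). Of the 14 semaphorins, 7 had a positive and 7 a negative difference, and of the plexins 3 and 5.

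Robo3 (ENSMUSG00000032128.15, chr9:37415669-37433246 (minus strand)), the Robo relative that commissural axons use while they approach the midline, fell. Its E13 embryos ranged from 5.37 to 61.0 CPM (median 14.0), and the E16 embryos held 2 counts in all. E13 replicates 1 to 3 were at 5.37, 7.36 and 11.4 CPM and E13 replicates 4 to 6 at 16.5, 61.0 and 23.1 CPM. Every E13 embryo was above every E16 embryo. The pooled E13 level was 530.4 times the E16 level (886 against 2 counts; exact 95% interval 146 to 4386, counting error only), and the fitted log2 difference was −8.69 (SE 1.13, adjusted p = 0.000353). The E13 libraries read 0, 24.4, 1.95, 62.1 and 28.2 CPM in yellow, 0, 0, 14.7, 46.3 and 0.214 in red and 23.5, 0, 0, 0 and 45.9 in green cells, so that each colour held libraries at 0. At E16 Robo3 had 1 count in red replicate 7, 1 in green replicate 4 and none elsewhere. Robo1 and Robo2, the receptors through which Slits repel, had positive differences that did not pass. Robo1 was at 23.8 ± 6.34 and 52.6 ± 27.7 CPM (SD, n = 6 and 7; log2 1.14, SE 0.40, adjusted p = 0.115). Robo2 was at 176 ± 106 and 292 ± 75.5 CPM (SD, n = 6 and 7; log2 0.73, SE 0.32, adjusted p = 0.227).

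Slit2 (ENSMUSG00000031558.15, chr5:47983138-48307733 (plus strand)), a secreted repellent and Robo ligand, ranged from 55.1 to 161 CPM (median 77.0) in the E13 embryos and from 5.58 to 43.3 CPM (median 25.2) in the E16 embryos. The ages did not overlap. E13 replicates 1 to 3 were at 71.2, 55.1 and 65.0 CPM and E13 replicates 4 to 6 at 82.9, 161 and 92.9 CPM. The mean went from 88.1 ± 38.3 (SD, n = 6) to 25.7 ± 13.1 CPM (SD, n = 7), and the fitted log2 difference was −1.77 (SE 0.42, adjusted p = 0.0233), a 3.42-fold fall. In red cells the E13 libraries read 87.9, 36.6, 50.4, 107 and 87.9 CPM and the E16 libraries 0 to 73.6 (median 3.64). In green cells they read 32.4, 63.5, 115, 132 and 123 CPM and 0 to 95.7 (median 34.0). The yellow libraries read 84.1, 65.5, 39.7, 164 and 78.8 CPM and 0 to 107 (median 16.5). Within each colour the ages overlapped. The call was lost over embryos with all 3 libraries (log2 −1.55, adjusted p = 0.0810) and with red and green libraries only (log2 −1.68, adjusted p = 0.106). Slit1, its relative, was at 4.85 ± 4.17 and 4.07 ± 2.69 CPM (SD, n = 6 and 7; log2 −0.25, SE 0.90).

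**Figure D2:**
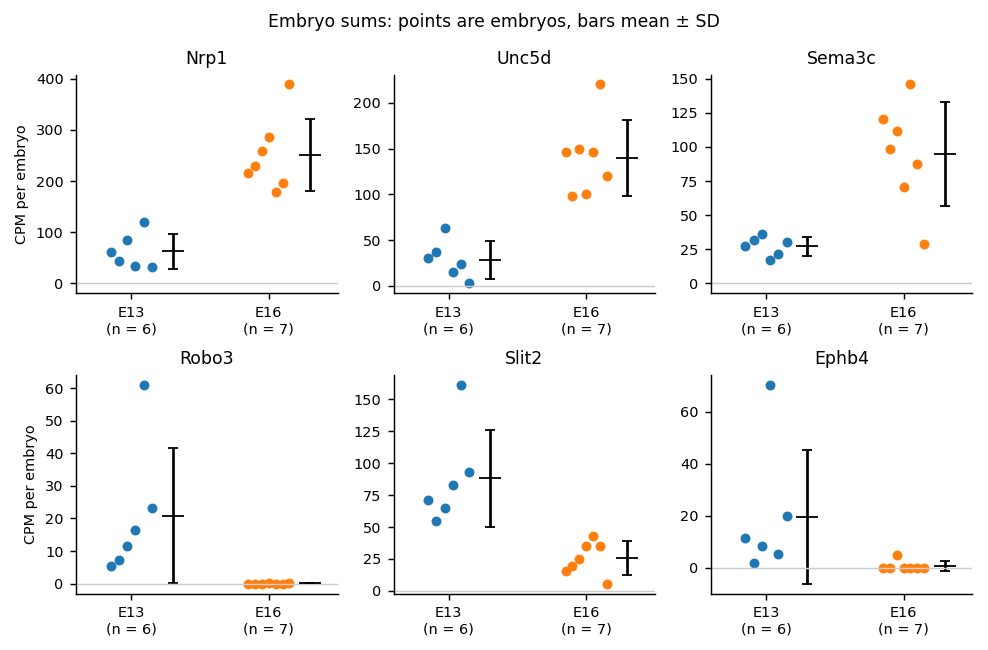
CPM (linear axis) of each E13 embryo (n = 6) and E16 embryo (n = 7), with the counts of its libraries summed, for Nrp1, Unc5d, Sema3c, Robo3, Slit2 and Ephb4; points are embryos and bars the mean ± SD. Nrp1 and Unc5d are separate and higher at E16, Robo3 and Slit2 are separate and higher at E13, and Sema3c overlaps through 1 E16 embryo at 28.6 CPM.

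None of the 7 ephrins and 9 Eph receptors passed. Of the ephrins 6 had a negative difference, and the abundant Efnb2 was at 113 ± 45.9 CPM at E13 and 107 ± 46.9 CPM at E16 (SD, n = 6 and 7). Efna5, which repels axons that carry EphA receptors, was at 4.12 ± 5.71 and 8.25 ± 14.6 CPM (SD, n = 6 and 7). The EphA receptors had log2 differences of 0.26 for Epha3 (SE 0.35), −0.36 for Epha4 (SE 0.23), 0.72 for Epha5 (SE 0.35) and −0.30 for Epha7 (SE 0.34). Ephb4 (ENSMUSG00000029710.15, chr5:137350109-137378669 (plus strand)), a receptor of Efnb2 known from blood vessels, ranged from 1.84 to 70.4 CPM in the E13 embryos. At E16 it was at 0 in 6 of 7 embryos and at 4.93 CPM in replicate 3. Its log2 difference of −4.73 (SE 1.55, adjusted p = 0.0933) did not pass, and without E16 replicate 3 it was −10.42 and passed (adjusted p = 0.00506).

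**Figure D3:**
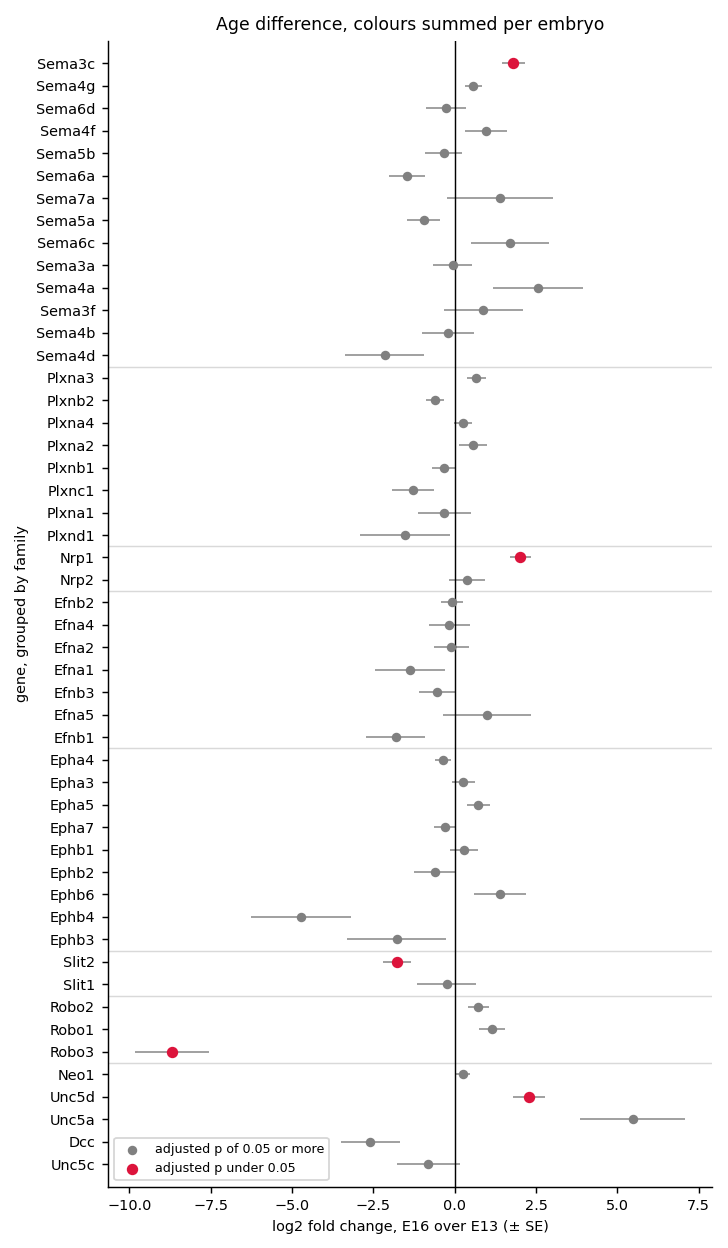
Log2 difference, E16 over E13, of each of the 50 genes in the embryo sums, grouped by family, with bars of ± SE and the genes with an adjusted p under 0.05 in red. The 5 red points are Sema3c, Nrp1 and Unc5d above 0 and Slit2 and Robo3 below 0.

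Without the 3 libraries that held both Xist and Y-linked counts, the 5 genes stayed past the threshold and Unc5a joined them, with a log2 difference of 6.58 (adjusted p = 0.0410). The share of all genes called in that fit is not given here. Over all libraries, 663 of the 845 E16 counts of Unc5a came from embryo 6. Without those 3 libraries the differences were 1.84 for Nrp1, 2.37 for Unc5d, 1.93 for Sema3c, −8.25 for Robo3 and −1.59 for Slit2. With all libraries, DESeq2 called 8 of the 50 (16%), these 5 with Dcc, Ephb4 and Unc5a, against 9.79% of all genes.

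Cell-type markers moved with age beside these genes, given as summed CPM per embryo. Radial glia markers ranged from 1608 to 2505 at E13 and 778 to 2794 at E16, and 5 of 7 tested fell (Nes, Vim, Pax6, Hes1 and Sox2). The other 2 tested, Slc1a3 and Fabp7, were on the positive side and did not pass. Intermediate progenitor markers ranged from 937 to 1622 and 298 to 826, with 1 of 6 lower. Projection neuron markers ranged from 3439.7 to 4751 and 5009 to 7162, with 4 of 8 higher and 1 lower. Cajal-Retzius markers ranged from 74.0 to 601 and 30.0 to 191, with 1 of 4 lower. Interneuron markers ranged from 16.9 to 141 and 0.136 to 13.9, with 1 of 2 lower, and those of pericytes and meninges from 5.41 to 554 and 2.31 to 17.3, with 2 of 4 of the latter lower. Endothelial markers ranged from 0 to 31.5 and 0 to 0.903, with none abundant enough to test. Erythroid markers ranged from 0.338 to 33196 and 2.03 to 1047, with 1 of 3 lower, and oligodendrocyte markers from 1.19 to 25.7 and 0 to 155, with 1 of 2 lower. Microglia markers ranged from 0 to 31.4 and 0 to 18.1, and the 1 tested did not pass. The part of these cell types in the differences of the guidance genes was not tested.

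The promoters of the genes with the smallest p are shown so that their letters can be read beside these differences. They come from RefSeq (GRCm38.p6), which has an entry for 42 of the 50 genes, as the 250 bases before the RefSeq start, limited to the stretch outside exons annotated by Gencode. That of Nrp1 lies inside the Gencode gene, between the first exon of a short transcript and the start of the longer ones. Capitals mark matches to CANNTG, the E-box bound by proneural transcription factors such as Neurog2, which reads the same on both strands. The stretches are Robo3 at chr9:37433247-37433425 (minus strand), Nrp1 at chr8:128358823-128359072 (plus strand) and Slit2 at chr5:47982905-47983137 (plus strand).
Robo3: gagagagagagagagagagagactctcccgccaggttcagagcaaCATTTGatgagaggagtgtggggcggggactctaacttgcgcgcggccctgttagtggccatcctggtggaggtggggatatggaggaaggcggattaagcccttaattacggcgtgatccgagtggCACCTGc
Nrp1: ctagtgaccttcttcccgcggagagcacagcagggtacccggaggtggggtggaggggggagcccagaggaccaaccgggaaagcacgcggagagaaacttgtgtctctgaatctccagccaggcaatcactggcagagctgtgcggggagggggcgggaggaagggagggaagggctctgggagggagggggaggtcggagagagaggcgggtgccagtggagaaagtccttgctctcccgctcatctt
Slit2: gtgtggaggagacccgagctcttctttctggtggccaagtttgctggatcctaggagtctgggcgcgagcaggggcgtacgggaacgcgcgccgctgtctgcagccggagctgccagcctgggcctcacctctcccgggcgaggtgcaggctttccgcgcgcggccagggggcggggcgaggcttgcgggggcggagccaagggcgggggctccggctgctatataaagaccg
The 250 bases held 2 E-boxes in Robo3 and 0 in Nrp1 and Slit2. Those of Sema3c lie in its annotated first exon and are not printed; they held 2, of which 1 was CAGATG, itself a form of CANNTG. Of all 32851 promoters of that length, 66.2% held CANNTG and 14.4% held CAGATG on either strand. TAATTA, a core read by many homeodomain proteins and the same on both strands, occurred 1 time in Robo3 and in 4.84% of all promoters. The GC content was 61.2% for Robo3, 64.4% for Nrp1, 78.4% for Sema3c and 69.6% for Slit2, where the median was 52.4%. A match describes letters only, and Unc5d had no entry.

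Within single colours, which reuse the libraries of the summed comparison, 5 libraries stood against 7. In green cells 2 of the 50 genes (4%) passed, against 1.35% of all genes. In red cells none passed, against 0.314%, and in yellow cells none, against 0.148%. At an unadjusted p under 0.05 stood 12 of 50 genes in green (24%, all genes 15.3%), 8 in red (16%, all genes 11.3%) and 10 in yellow cells (20%, all genes 8.08%). DESeq2 called 6 in green (12%, all genes 6.18%), 4 in red (8%, all genes 2.71%) and 4 in yellow cells (8%, all genes 1.69%). The ages did not overlap for Ephb4 and Nrp1 in green cells (2 of 50 genes, 3.44% of all genes), for Sema3c and Unc5d in red cells (2 of 50, 2.44%) and for Nrp1, Plxna2 and Unc5d in yellow cells (3 of 50, 1.39%). The median log2 difference of the 50 genes was 0.17 (green), −0.10 (red) and −0.32 (yellow), against 0.03, 0 and −0.06 over all genes. Leaving out 1 library moved it to between 0.15 (without E16 replicate 4) and 0.52 (without E13 replicate 2) in green, −0.41 (without E16 replicate 5) and 0.03 (without E16 replicate 6) in red and −0.58 (without E16 replicate 7) and 0.03 (without E13 replicate 2) in yellow cells, so the signs in red and yellow cells rested on single libraries. The sign of the difference was positive in all 3 colours for 10 genes, negative in all 3 for 14 and mixed for 26.

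In green cells Nrp1 rose, by 3.01 (SE 0.69, adjusted p = 0.0410) on the log2 scale. Ephb4 read 10.8, 4.55, 12.3, 252 and 37.9 CPM at E13, and at E16 it was at 0 in 6 of 7 libraries and at 3.59 CPM in replicate 3. It fell, with a log2 difference of −6.66 (SE 1.56, adjusted p = 0.0456). Each call passed in only 2 of the 12 fits that left out 1 library: Nrp1 without E13 replicate 1 or 4, and Ephb4 without E13 replicate 2 or E16 replicate 3. In those 12 fits the Nrp1 difference lay between 2.70 and 3.45 and that of Ephb4 between −10.61 and −4.81, the last without E13 replicate 4 (adjusted p = 0.204). Without E16 replicate 7, which held both Xist and Y-linked counts, the adjusted p was 0.0505 for Nrp1 and 0.0501 for Ephb4. E13 replicate 4 held 252 CPM of Ephb4, 430.0 CPM of Dcc and 0.418 CPM of Nrp1, and had Plxna2, Robo1 and Sema3c at 0. Its endothelial markers summed to 129 CPM, all from Kdr with Cldn5, Pecam1 and Flt1 at 0, where the other E13 green libraries had at most 12.9 CPM; their part in the Ephb4 value was not tested.

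The genes that followed in green cells did not pass. On the positive side they were Epha5 (1.40, SE 0.43), Sema3c (2.51, SE 0.85) and Robo2 (0.99, SE 0.37), and on the negative side Robo3 (−6.76, SE 2.19), Plxnb1 (−1.33, SE 0.46) and Dcc (−3.57, SE 1.56), all log2 differences. In red cells the leading positive differences were those of Nrp1 (1.81, SE 0.51, adjusted p = 0.190), Sema3c (2.47, SE 0.73), Unc5d (3.28, SE 1.05) and Unc5a (9.21, SE 3.23). Unc5a had no count in red cells at E13 and 623 at E16, of which 621 were in replicate 6. The leading negative differences in red cells were those of Sema6a (−4.10, SE 1.44), Robo3 (−6.37, SE 2.25), Ephb4 (−3.31, SE 1.86) and Slit2 (−2.19, SE 1.28).

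In yellow cells Nrp1 (1.85, SE 0.46, adjusted p = 0.164), Unc5d (2.74, SE 0.88), Plxna2 (1.54, SE 0.51) and Sema7a (7.92, SE 2.66) led on the positive side. Plxna2 read 109, 159, 108, 94.6 and 146 CPM at E13 and 182 to 1179 (median 211) at E16, the highest value being that of replicate 7, and the ages did not overlap. On the negative side stood Efna1 (−8.96, SE 1.95, adjusted p = 0.159), Robo3 (−9.20, SE 2.04), Ephb4 (−6.44, SE 1.77) and Sema6a (−1.98, SE 0.82). Efna1, an ephrin of the membrane-anchored class, had 361 counts at E13 and none at E16, at least 121-fold lower by a floor of 3 counts over the group. By the same floor Robo3 was at least 141-fold lower (420 counts against none) and Ephb4 at least 20.5-fold lower (61 against none). Sema7a had no count at E13 and 152 at E16, at least 50.2-fold higher. None of these passed the test. For Efna1, Robo3, Ephb4 and Sema7a the ages overlapped, since the age with counts also held libraries without any. The floors cover counting error only.

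**Figure D4:**
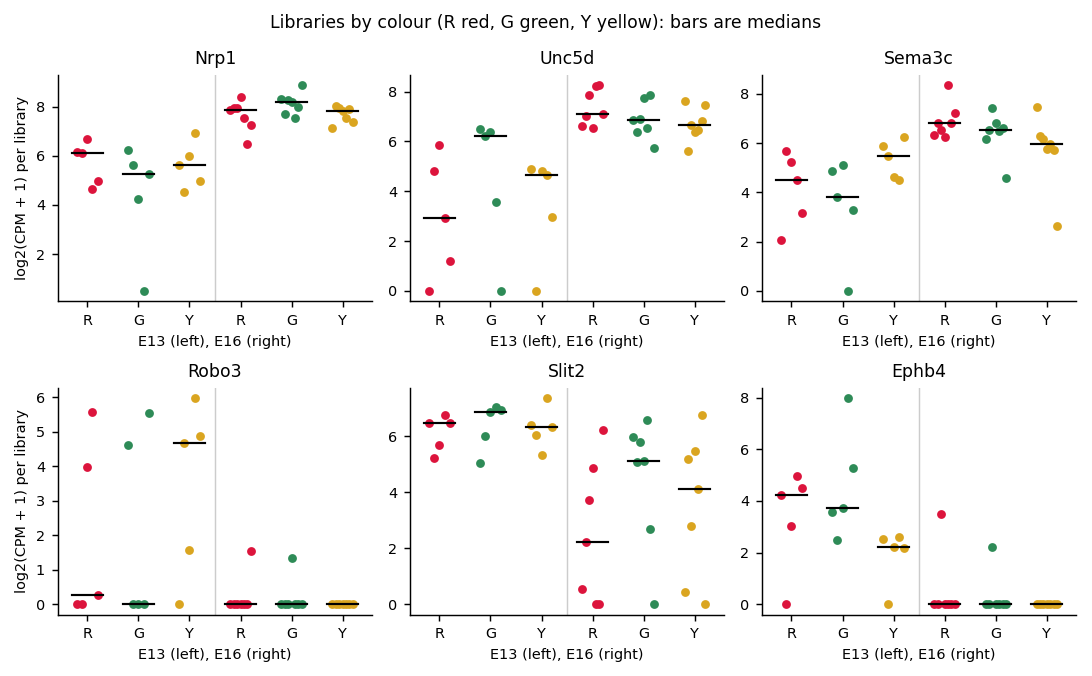
Log2 of CPM plus 1 of every library by cell colour (R red, G green, Y yellow; n = 5 per colour at E13 on the left, 7 at E16 on the right) for Nrp1, Unc5d, Sema3c, Robo3, Slit2 and Ephb4; points are libraries and bars medians. An E13 green library, at 252 CPM of Ephb4, stands above the others, and Robo3 is at 0 in all E16 libraries but 2.

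Further genes of the pathway came from fixed lists. Of 21 other guidance cues and surface proteins tested, 2 rose and 1 fell in the embryo sums, against 2.28% higher and 2.26% lower of all genes. Chl1, a cell adhesion molecule that binds Nrp1 (log2 3.19, SE 0.20, adjusted p = 1.48e-07), and Tenm2, a teneurin (2.99, SE 0.39, adjusted p = 0.000358), rose, and Rgmb, a Neo1 ligand (−2.01, SE 0.50, adjusted p = 0.0289), fell. Of 45 intracellular effectors tested, 3 rose and none fell, against the same shares of all genes: Trim67, a Dcc-binding protein (2.24, SE 0.29, adjusted p = 0.000353), Ablim1, an actin-binding protein (1.73, SE 0.37, adjusted p = 0.0129), and Dpysl5, a collapsin response mediator (1.38, SE 0.35, adjusted p = 0.0328). The median log2 difference was 0.14 over the cues and 0.29 over the effectors, against 0.05 over all genes.

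The colour comparison sets singly coloured cells, the mean of red and green, against yellow cells of the same embryo. None of the 50 genes passed at E13, where 0.00872% of all genes did, and none at E16, where 0% did. None passed for the difference of this contrast between the ages, again with 0% of all genes. At an unadjusted p under 0.05 in edgeR stood 6 genes at E13 (12%, all genes 7.01%), 3 at E16 (6%, all genes 2.26%) and 4 for the difference between ages (8%, all genes 4.14%). DESeq2 called 3 genes at E13 (Ephb4, Sema3f and Sema4f; 6%, all genes 4.56%), 1 at E16 (Efna1; 2%, all genes 0.732%) and 1 for the difference (Efna1; 2%, all genes 1.74%).

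At E13 the 50 genes had a median log2 difference, singly coloured minus yellow, of −0.67, against −0.12 over all genes, and 34 of 50 were negative. Without yellow replicate 2, which held both Xist and Y-linked counts and many reads outside genes, the medians were −0.15 and −0.30, so the lower median of the 50 genes rested on that library. Without replicate 4 they were −0.37 and 0.00. In each of the 4 embryos with all colours 4 genes were higher in singly coloured cells (8%, all genes 6.68%: Epha4, Ephb3, Ephb4 and Sema4b) and 8 lower (16%, all genes 9.28%: Neo1, Plxna3, Plxna4, Plxnc1, Robo1, Sema3c, Sema4f and Sema6d). Robo1 read 31.8, 67.3, 45.1, 35.0 and 38.2 CPM in yellow, 20.7, 6.94, 23.9, 11.2 and 14.8 in red and 7.51, 15.7, 5.40, 0 and 0 in green cells. Every yellow library was above every red and green library, which held for this 1 gene of the 50 (2%) and, in either direction, for 0.689% of all genes. The within-embryo difference averaged −2.91 ± 1.24 on the log2 scale (SD, n = 4) and the fitted one was −2.79 (SE 1.25, adjusted p = 0.706). Plxna4 differed by −0.65 ± 0.13 within embryos (SD, n = 4; fitted −0.52, SE 0.42). Epha4 read 129, 47.4, 194, 258 and 128 CPM in yellow, 243, 253, 370.1, 424 and 220.2 in red and 283, 299, 300.1, 129 and 216 in green cells, with a fitted difference of 1.11 (SE 0.42, adjusted p = 0.652). The colours overlapped for Epha4.

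Sema4f, a transmembrane semaphorin, had the smallest p at E13 (log2 −4.34, SE 1.31, adjusted p = 0.496). It read 34.7, 159.8, 8.77, 23.0 and 63.3 CPM in yellow and 4.84, 13.4, 34.3, 13.2 and 10.3 in red cells, and was at 0 in 4 of 5 green libraries. Epha5 (−1.05, SE 0.41) and Plxna3 (−2.27, SE 1.12) followed on that side. Epha5 stood at 774 CPM in yellow replicate 2 and at 108 to 170.1 CPM in the other yellow libraries. Without that library the log2 differences were −0.65 for Epha5, 0.75 for Epha4, −3.16 for Robo1 and −5.29 for Sema4f, and none passed. On the positive side Ephb4 (3.39, SE 1.25), Sema3f (7.19, SE 3.15) and Sema7a (6.17, SE 2.82) led with Epha4, and Sema7a had no count in the E13 yellow libraries.

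At E16 the median log2 difference was 0.19 over the 50 genes and 0.00 over all genes. The former was 0.10 without embryo 4 (all genes 0.004) and 0.10 without embryo 5 (all genes 0.08). It was 0.02 for red cells alone against yellow (all genes −0.03) and 0.38 for green cells alone (all genes 0.065). Sema5b, a transmembrane semaphorin, was higher in singly coloured cells of all 7 embryos, by 2.73 ± 1.77 on the log2 scale (SD, n = 7). It was the 1 gene of the 50 higher in all 7 (2%, all genes 0.523%), and none was lower in all 7 (all genes 1.06%). It ranged from 17.0 to 70.0 (median 33.5) CPM in green, 0 to 26.7 (median 0.931) in red and 0 to 14.5 (median 0) in yellow cells. Every green library was above every yellow library, as in 0.061% of all genes in either direction, while red and yellow overlapped; green was set against yellow after these values were seen. The fitted difference was 3.87 (SE 1.48, adjusted p = 1). Efna1 (6.86, SE 2.61), at 0 in the E16 yellow libraries, Plxnb1 (2.43, SE 0.98) and Epha5 (0.59, SE 0.34) followed. The leading negative differences were those of Sema4a (−2.07, SE 1.16), Unc5c (−2.45, SE 1.82), Plxna2 (−0.43, SE 0.32) and Ephb1 (−0.76, SE 0.60). Nrp1, which rose with age, differed between the colours by −0.29 (SE 1.00) at E13 and 0.23 (SE 0.30) at E16.

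**Figure D5:**
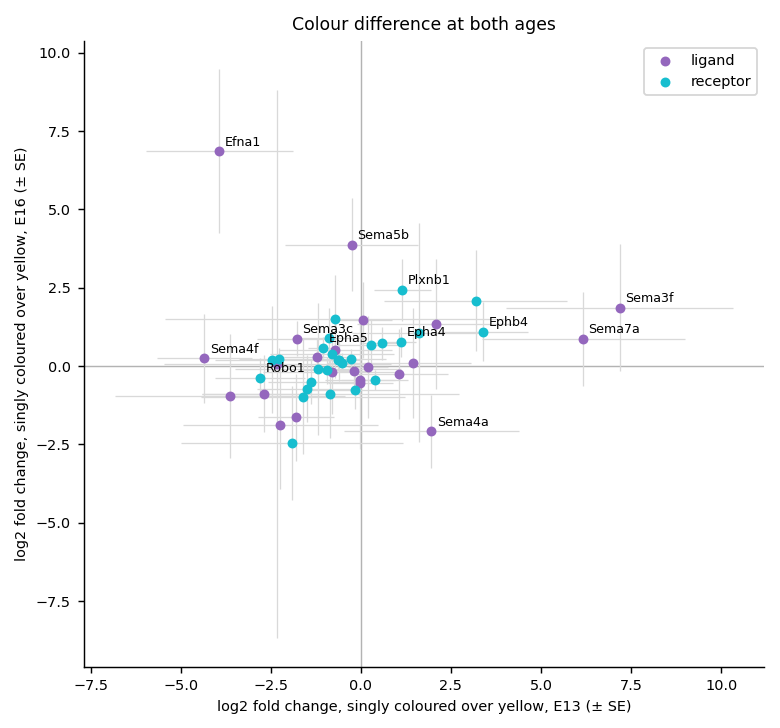
Log2 difference, singly coloured over yellow cells, of each of the 50 genes at E13 (horizontal axis) against E16 (vertical axis), with bars of ± SE and colours for ligands and receptors. No gene passed at either age, 34 of 50 lie left of 0, and Robo1 at −2.79 and Sema4f at −4.34 are among them.

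The change of this contrast from E13 to E16 was positive and led by Efna1 (11.05, SE 3.47), Epha5 (1.63, SE 0.54), Sema3c (2.66, SE 1.07) and Plxna3 (2.49, SE 1.03). It was negative and led by Sema3f (−5.02, SE 2.83), Sema7a (−5.15, SE 2.91), Sema4a (−3.97, SE 2.53) and Ephb4 (−1.54, SE 1.40), and each of the 8 had an adjusted p of 1. Within embryos Sema3c differed by −2.25 ± 1.03 (SD) and was lower in 4 of 4 at E13. At E16 it differed by 0.95 ± 1.36 (SD) and was higher in 6 of 7. Sema4b, a transmembrane semaphorin, was the one gene of the 50 tested on chromosome 7, whose parental origin differs between the colours. Its contrast was 1.43 (SE 1.63, adjusted p = 0.927) at E13 and 0.10 (SE 1.75, adjusted p = 1) at E16.

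Cell-type markers are given beside the colour comparison, in the order red, green and yellow. Radial glia markers summed to a median of 2018 CPM in red, 2845 in green and 1255 in yellow cells at E13 and to 1612, 1969.5 and 1092 at E16. All 7 tested were on the positive side at both ages, none past the threshold. Intermediate progenitor markers summed to 1236, 1447 and 937 CPM at E13 and 416, 429 and 301 at E16, with 6 of 6 on the positive side at both ages. Projection neuron markers summed to 4054, 3745 and 4751 CPM at E13, with 8 of 8 on the negative side, and to 5709, 5309 and 6054 at E16, with 4 of 8 on each side. Cajal-Retzius markers were at a median of 87.5 CPM in red, 120.1 in green and 583 in yellow cells at E13. At E16 they were at 15.2, 85.2 and 155 CPM, with 4 of 4 on the negative side at both ages. Erythroid markers had E13 medians of 10757, 6.84 and 718 CPM, with highest libraries of 49470, 4519 and 44490 CPM. All 3 erythroid markers tested were on the negative side at E13. Those of pericytes and meninges were at 163, 307 and 7.75 CPM at E13, with 4 of 4 on the positive side, and those of microglia at 0, 0 and 33.3 CPM, with the 1 tested on the negative side. No marker passed the threshold in these contrasts. Their part in the differences of the guidance genes between colours was not tested.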

How the data were processed

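The 39 libraries were made with Smart-Seq2 from sorted cells, without molecular identifiers or strand information. Per the labels and methods, the authors combined technical replicates with SAMtools 1.8, converted them with bedtools 2.26.0 and aligned them with STAR 2.5.0c to GRCm38 with Gencode M16, keeping reads with 1 alignment, and deposited raw read counts per gene. The unstranded count was used; antisense overlaps and near-identical genes can share or lose reads. Symbols and positions came from Gencode M21 by gene identifier (53274 of 53379 genes). STAR's totals of unassigned reads were left out of library sizes.

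Libraries with under 40% uniquely aligned reads (18.8% to 36.1%, against 50.5% to 66.0% in those kept) were left out. Genes with a mean count of 10 were tested with edgeR 4.0.16 (TMM, quasi-likelihood) in R 4.3.3 and Benjamini-Hochberg adjustment over all 11472. CPM of the guidance genes are TMM-adjusted, those of marker sums are not, and log2 CPM within embryos use a prior count of 2. The age fits had no block, and the colour fits had the embryo as a block, with the replicate number taken as the embryo: per the labels the replicates were single individuals, and in 12 of 12 numbers with several libraries the stronger signal, Xist or Y-linked, was shared by all of them. Libraries of embryos with the same stronger signal cannot be told apart in this way. Same-numbered libraries had a mean correlation of 0.0439 at E13 and 0.0294 at E16 in their deviations from the group means, against −0.00919 and −0.00357 otherwise. Intervals and floors cover counting error only.

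Named genes were those past the threshold, the 4 with the smallest p in each direction of each comparison and a fixed list of well-known members; Nrp2, Plxna1, Plxnb2, Sema4b, Sema4d, Ephb3 and Sema6d were also named to complete a family or a count after their values were seen. The genes and lists were chosen with earlier results of these data known. Alternatives covered normalisation, filters, libraries, blocks and tools (DESeq2 1.42.0, limma 3.58.1), and tests were tried on simulated data.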

Additional observations from a re-analysis of the deposited data

Results flagged for a closer look

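In all, 48 groups of 5 to 7 samples were examined for the 6 genes past a threshold. Of these, 14 held a value far from the others by Dixon's criterion, where chance gives about 1 in 20. Many of these groups share libraries or are mostly at 0. For Ephb4, E13 green replicate 4 stood at 252 CPM, with the other 4 at 4.55 to 37.9, and its embryo at 70.4 CPM, with the others at 1.84 to 20.0. At E16 Ephb4 was at 10.4 CPM in red replicate 3, 3.59 CPM in green replicate 3 and 4.93 CPM in the sum of that embryo, where all others were at 0. For Robo3, E13 embryo 5 was at 61.0 CPM (others 5.37 to 23.1), and E16 red replicate 7 at 1.94 CPM and green replicate 4 at 1.55 CPM, 1 count each, with the others at 0. Slit2 was at 161 CPM in E13 embryo 5 (others 55.1 to 92.9), 73.6 CPM in E16 red replicate 7 (others 0 to 28.5) and 107 CPM in E16 yellow replicate 6 (others 0 to 43.9). Sema3c was at 329 CPM in E16 red replicate 5 (others 75.4 to 149) and 176 CPM in E16 yellow replicate 1 (others 5.18 to 76.4). Unc5d was at 220 CPM in E16 embryo 6 (others 98.2 to 149). E13 embryo 5 was represented by yellow cells only.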

How the results depend on the processing

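DESeq2 called 4 in yellow, 4 in red, 6 in green, 8 in the embryo sums, 3 and 1 in the colour contrast at E13 and E16 and 1 for its change (all genes: 194, 311, 709, 1123, 523, 84 and 200). Voom on the unsummed libraries, with the embryo as a random block, differs from the sums in tool and unit and gave 12 (1317 of all genes). The 32 libraries the study used gave 4 in yellow, namely Efna1, Nrp1, Robo2 and Unc5d (148 of all genes). In red they gave 1, Nrp1 (192). Of the libraries kept here, the study did not use E13 yellow replicate 2, E16 red replicates 5 and 6 and E16 yellow replicate 7. Without a filter, yellow gave 1 (55), and the colour contrast none with 20, 2 and 26 of all genes. In green the main fit called 2 (155 of all genes), and all 39 libraries gave 1 (49). A single fit of the 6 groups gave 1 (113), and a term for replicates 1 to 3 gave 1 (219). Leaving out the library with both Xist and Y-linked counts, chosen after seeing the data, gave 0 (205). In red, all 39 libraries gave 7 and the 6-group fit 89 of all genes. Leaving out each replicate gave 0 to 0 genes in yellow and red, 0 to 1 in green, 5 to 6 in the sums and 0 to 0 in the colour contrast and its change (all genes: 1 to 32, 5 to 80, 76 to 205 and 306 to 602 for the age comparisons). Without the replicate block, the colour contrast called 0 guidance genes at E13, at E16 and for the change (9, 0 and 0 of all genes, against 1, 0 and 0 with it). With so few calls in either fit, this cannot show whether the pairing matters. Of 1203 single-gene values, 1142 kept direction and side of the threshold, 30 newly passed, 29 no longer passed and 2 reversed: the Ephb4 change between ages was 0.0351 with the 32 libraries and 1.48 without the block. Nrp1, Sema3c and Robo3 passed in all 24 alternatives of the sums, Unc5d in 23 and Slit2 in 22. The median of all genes shifted by more than 0.1 on the log2 scale in some fits, most in the E13 colour contrast with all 39 libraries, where it was −0.60 (guidance genes −1.24). Causes were not tested. Depth limits genes at few counts, many of which were at 0 in 10 or more libraries.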
